A study of Chromochloris zofingiensis with 14 samples.

Results

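The light-harvesting and early light-induced proteins of the green alga Chromochloris zofingiensis were encoded by 33 gene models in the deposited genome annotation. They were taken as the gene models outside the chloroplast and mitochondrial sequences whose name starts with LHC or ELI, or whose note speaks of light harvesting or early light induction. All 33 were found by name, and 0 by note alone. They made up 33 of 15369 annotated genes, of which 15274 lay outside the organelles and are called nuclear genes here. Of the 33 members, 23 had LHC names and 10 were named ELIP1 to ELIP10.

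Light-harvesting proteins sit in the thylakoid membrane, bind chlorophylls and carotenoids, and pass absorbed light energy to the photosystem I or photosystem II reaction centres. Their relatives, the early light-induced proteins, accumulate in plants when the chloroplast is exposed to strong light and are thought to protect it rather than to feed the photosystems. Both kinds are made in the cytosol from nuclear genes, enter the chloroplast through its envelope translocases, and share a chlorophyll-binding type of membrane helix.

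The series held 14 RNA libraries, 1 per growth condition, all from strain SAG 211-14, with no altered genotype named in the labels. Cultures grew at 25 °C with 16 h of light and 8 h of dark each day. Light was 100 µmol photons per square metre per second unless changed. Low light was 40 and high light 400 on the same scale, and further cultures had 48 h of dark or 72 h with 20 mM glucose. Nitrogen, phosphorus, sulfur or iron was withheld for 1 h, and oxygen for 4 h in light or in the dark. Oxidative stress came from 1 mM hydrogen peroxide for 2 h, or from 5 µM rose bengal, which under illumination generates singlet oxygen, for 1 h of light after 0.5 h of dark or for 3 h after 1 h of dark. Expression values of these cultures were not analysed here, so no statement on the response of any member to light or stress is made. What follows describes the structure and position of the genes. The members are related genes and not replicates, so differences between sets are given as counts and spreads with no test.

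The 23 light-harvesting genes were sorted by role from their notes, or from their names for LHCB4, LHCB5 and LHCSR. LHC1 to LHC13 were noted as putatively associated with photosystem I, 13 genes in all. LHC14 to LHC20 were noted as putatively associated with photosystem II, 7 genes in all. LHCB4 and LHCB5, known as CP29 and CP26, are the minor antenna proteins that in plants join the outer antenna to the photosystem II core. LHCSR carried the alias LI818, the name of a stress-related antenna protein that in Chlamydomonas takes part in the harmless dissipation of excess light energy. ELIP10 carried the alias CBR, the name of a carotene-linked relative of early light-induced proteins in Dunaliella. Names and notes were the sole evidence for these roles, since protein sequences were not used here.

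All manual models were light-harvesting genes and carried no score, while the scores of predicted models were close in the 2 families. Gene prediction with AUGUSTUS gave 29 models, while LHC6, LHC12, LHC13 and LHCB4 were made manually, 4 of 33 against 0.674% of all nuclear genes. The deposited score of a predicted model had a median of 0.9 for 19 light-harvesting genes, 0.93 for the 10 early light-induced genes and 0.78 for all nuclear genes. LHC11 at 0.48, LHC14 at 0.41 and ELIP3 at 0.42 scored below 0.5. The file gives no definition of the score. No member had a coding length that was not a multiple of 3.

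Light-harvesting genes had the longer coding regions. Their coding length ran from 555 to 1206 bases with a median of 801, and had a mean of 825 ± 153 bases (SD, n = 23 genes). Early light-induced genes ran from 312 to 744 bases with a median of 610.5, and had a mean of 581 ± 150 bases (SD, n = 10 genes). The medians differed by 190.5 bases, and 20 of the 23 light-harvesting genes were longer than every early light-induced gene. LHC12 at 555 bases, LHC3 at 678 and LHC7 at 696 fell inside the range of the other family. All nuclear genes had a median of 1041 bases, and 37.9% of them were shorter than the light-harvesting median against 27.9% for the early light-induced median. All 33 members were no longer than 1206 bases, as were 57.2% of nuclear genes.

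Within the light-harvesting family the lengths were tightly grouped, since 17 of 23 lay between the 747 bases of LHC5 and LHCSR and the 876 of LHC14, limits set after the values were seen. The photosystem I set had a median of 801 bases and the photosystem II set one of 771, and their ranges of 555 to 1167 and 759 to 1206 overlapped. LHC15 (Cz11g23240, chromosome 11, bases 2377741 to 2379935, minus strand) was the longest member at 1206 bases. LHC10 (Cz08g26140, chromosome 8, bases 2663521 to 2664687, plus strand) followed at 1167 bases, and LHC11 at 1146. The shortest light-harvesting gene was LHC12 (Cz03g00160, chromosome 3, bases 44611 to 45702, minus strand), a manual model near a chromosome end. LHCB5 had 858 coding bases, LHCB4 had 843 and LHCSR had 747, all inside the range of the photosystem I set.

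The early light-induced genes fell into a short pair and a longer remainder. ELIP9 (Cz03g10240, chromosome 3, bases 1079900 to 1080522, plus strand) had 312 coding bases and ELIP5 (Cz02g38160, chromosome 2, bases 3846587 to 3847111, plus strand) had 333, below every light-harvesting gene. The other 8 ran from 558 bases in ELIP10 to 744 in ELIP6 (Cz12g27130, chromosome 12, bases 2742309 to 2743052, plus strand), which was the longest of the family and had no intron.

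**Figure D1:**
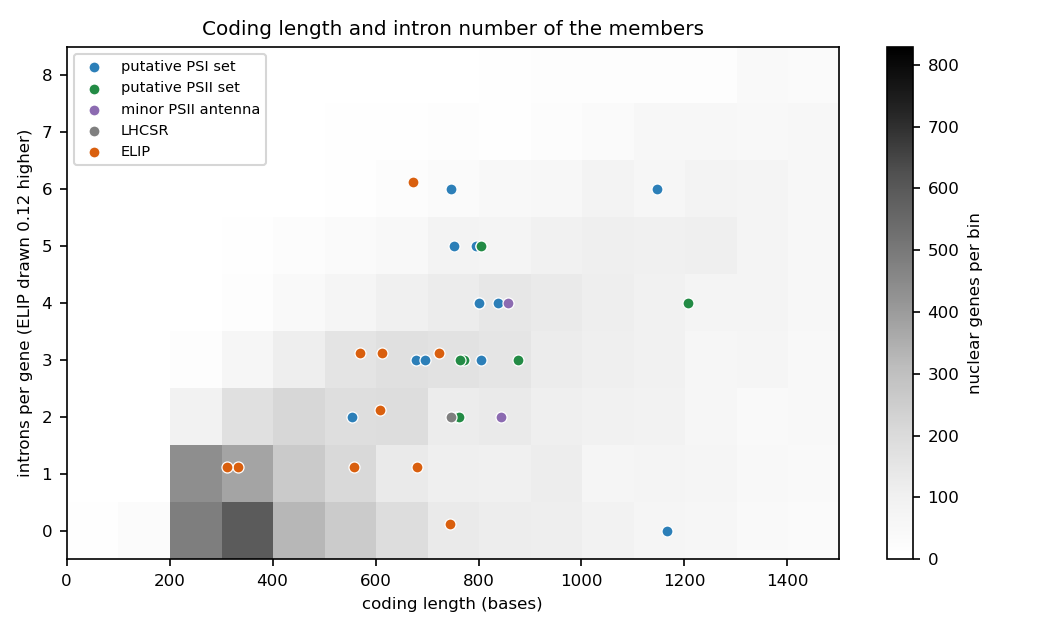
Coding length in bases (horizontal) and introns per gene (vertical) for the 33 members, coloured by role, over a grey count of all nuclear genes per bin. Early light-induced genes lie at 312 to 744 bases and mostly at 3 introns or fewer, while 17 of 23 light-harvesting genes lie between 747 and 876 bases with 2 to 6 introns.

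Introns were also more numerous in the light-harvesting family. These genes had 3.48 ± 1.47 introns (SD, n = 23 genes) with a median of 3, and early light-induced genes had 2.10 ± 1.73 (SD, n = 10 genes) with a median of 1.5. The difference of 1.38 introns was smaller than either SD, and both families ran from 0 to 6 introns. All nuclear genes had 3.97 ± 4.4 introns (SD, n = 15274 genes). Relative to length the 2 families kept their order, with medians of 4.31 introns per 1000 coding bases in light-harvesting and 3.24 in early light-induced genes. All nuclear genes, with the highest mean count, had the lowest median on this scale, 2.84. Named chromosomal genes, which include the members, had 3.9 on the same scale.

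The distribution over genes differed in shape. No light-harvesting gene had exactly 1 intron, whereas ELIP1, ELIP5, ELIP9 and ELIP10 did, beside 15% of nuclear genes. LHC10 and ELIP6 had none, 2 of 33 members against 17.7% of nuclear genes and 6.3% of named chromosomal genes. From 2 to 5 introns were found in 20 of 23 light-harvesting genes. Nuclear genes with 2, 3, 4 and 5 introns made up 12.3%, 11.1%, 9.63% and 8.2% of all nuclear genes. At least 5 introns were found in 6 light-harvesting genes and in ELIP2, 7 of 33 members against 34.2% of nuclear genes. LHC5 (Cz10g10160, chromosome 10, bases 1052937 to 1054788, minus strand), LHC11 (Cz14g01080, chromosome 14, bases 125901 to 128866, minus strand) and ELIP2 (Cz07g30110, chromosome 7, bases 3046503 to 3048012, plus strand) had 6 introns each, the highest number in either family. ELIP2 packed them into 672 coding bases, and its 5 internal coding segments of 107, 66, 55, 55 and 131 bases included the 2 shortest of the family. In the light-harvesting family, 4 internal segments were under 60 bases, all in the photosystem I set, and 3% of nuclear internal segments were that short.

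Intron phase says where an intron cuts the reading frame. A phase 0 intron lies between codons, a phase 1 intron after the first base of a codon, and a phase 2 intron after the second. Of 80 light-harvesting introns, 41 were in phase 0, 20 in phase 1 and 19 in phase 2, or 51.2%, 25% and 23.8%. All nuclear introns had 52.9%, 25% and 22.2%, within the exact 95% binomial intervals of the light-harvesting shares. Of 21 early light-induced introns, 9 were in phase 0, 8 in phase 1 and 4 in phase 2. The phase 1 share of 38.1% had an exact binomial interval of 18.1% to 61.6%, which held the share of all nuclear introns. Such intervals cover counting error only and take introns of a gene as independent.

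Phases were also counted by position along the gene. The last intron was in phase 0 in 15 of 22 light-harvesting genes with introns and in 3 of 9 early light-induced genes, against 51.5% of nuclear genes with introns. In early light-induced genes the commonest phase of the last intron was phase 1, in ELIP1, ELIP8, ELIP9 and ELIP10. Their first introns were in phase 0 in 6 genes, in phase 1 in 3 and in phase 2 in 0. Internal coding segments flanked by introns of the same phase, which keep the reading frame if skipped, were 24 of 58 in light-harvesting genes and 2 of 12 in early light-induced genes, beside 40.7% over all nuclear genes.

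Shared intron positions were counted as coding bases between the intron and the end of the coding region, because the front of these proteins holds a chloroplast transit peptide of variable length. An exact match in position and phase was found in 8 of 231 pairs of light-harvesting genes with introns, or 3.46%, against 1.07% of all pairs of nuclear genes with introns. Among nuclear genes with 1 to 6 introns, as in the members, the share was 0.731%, and among named chromosomal genes, which include the members, it was 1.76%. The count rested on few genes, since leaving out any of LHC9, LHC16, LHC17 or LHC18 gave 5 of 210 pairs. No exact match was found in 36 pairs of early light-induced genes or in 198 pairs across the families. Allowing 12 bases of difference gave 59 light-harvesting pairs or 25.5%, 6 early light-induced pairs or 16.7%, and 18 pairs across the families or 9.09%, against 9.00% of nuclear pairs. The nuclear share at that tolerance was 6.34% for genes with 1 to 6 introns and 14.6% for named chromosomal genes, so the share across the families lay between these backgrounds. Pairs share genes, so these pairs are not independent of each other.

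**Figure D2:**
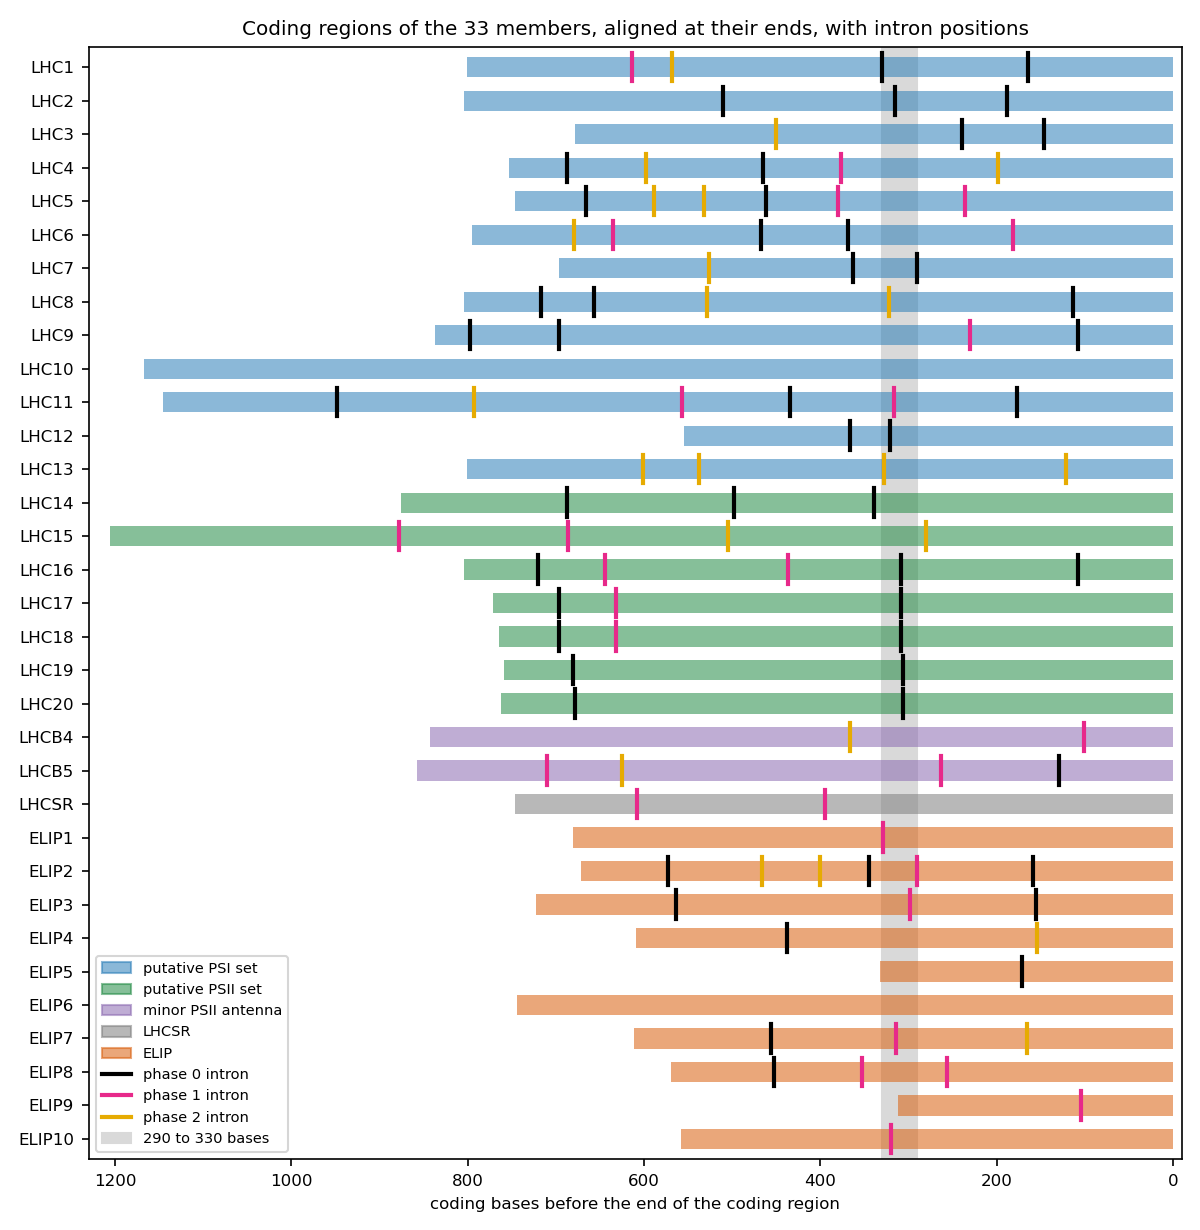
Coding regions of the 33 members drawn to scale and aligned at their ends, with coding bases before the end on the horizontal axis and introns as ticks coloured by phase. Black phase 0 ticks fall in the grey band from 290 to 330 bases in 9 light-harvesting genes, and pink phase 1 ticks fall there in 5 early light-induced genes.

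Of the 8 exact matches, 4 lay within the photosystem II set and 4 paired one of its genes with a gene of the photosystem I set. The photosystem II set had 4 matching pairs of 21, or 19%, which became 2 of 15 without LHC16, LHC17 or LHC18, and it had 14 of 21 within 12 bases, or 66.7%, while the photosystem I set had 0 of 66 and 20 of 66, or 30.3%. LHC17 (Cz07g02110) and LHC18 (Cz07g02100) shared all 3 introns, at 696, 632 and 309 bases from the end in phases 0, 1 and 0. Their internal segments of 64 and 323 bases and their last segments of 309 bases were equal, and their first segments of 75 and 69 bases differed by 6 bases.

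LHC19 (Cz15g09060) and LHC20 (UNPLg00080) lacked the intron at 632 bases. LHC19 had introns at 681 and 306 bases from the end and LHC20 at 678 and 306, all in phase 0, so that a single segment of 375 or 372 bases lay where LHC17 and LHC18 had a pair of segments. LHC16 (Cz13g03240) kept an intron at exactly 309 bases in phase 0 and had others at 720, 644, 437 and 108 bases. These 5 genes thus had a first segment of 69 to 84 bases ending in phase 0 and a phase 0 intron at 306 or 309 bases from the end.

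LHC14 and LHC15 stood apart from these 5. LHC14 (Cz04g24050) had 3 phase 0 introns, at 687, 498 and 339 bases from the end, behind a first segment of 189 bases. LHC15 had introns at 878, 686, 505 and 280 bases from the end in phases 1, 1, 2 and 2. Counted that way, it shared no position with any member within 12 bases. Counted from the start, LHC15 had an intron at 520 bases within 12 bases of that of LHC5 at 511, both in phase 1. The intron of LHC15 at 686 bases from the end lay close to that of LHC14 at 687 but in another phase.

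A window of 290 to 330 bases from the end, set after the positions were seen, summarises the arrangement. Its edges lie on counted introns, of ELIP2 at 290 bases and of LHC1 at 330, and no other width was tried. A phase 0 intron lay in it in 9 of 23 light-harvesting genes, namely LHC1, LHC2, LHC7, LHC12 and LHC16 to LHC20, and in 0 of 10 early light-induced genes, against 5.93% of nuclear genes. A phase 1 intron lay in it in 5 of 10 early light-induced genes and in 1 of 23 light-harvesting genes, against 2.87% of nuclear genes. The 5 were ELIP1 at 329 bases, ELIP10 at 320, ELIP7 at 314, ELIP3 at 299 and ELIP2 at 290, and the light-harvesting gene was LHC11 at 317. LHC8 and LHC13 had phase 2 introns in the window. At the front of the gene, a first segment of at most 90 bases ending in phase 0 was found in 9 light-harvesting genes (LHC4, LHC5, LHC8, LHC9 and LHC16 to LHC20) and in 0 early light-induced genes, against 11.0% of nuclear genes. The limit of 90 bases was also set after the values were seen.

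In the photosystem I set the likeness between genes was looser. LHC4 (Cz09g32070) and LHC5 had 3 introns within 12 bases of each other in the same phase, at 598, 465 and 377 bases from the end in LHC4 and at 589, 462 and 380 in LHC5. LHC5 also had 2 introns within 12 bases of introns of LHC8, and 2 within 12 bases of introns of LHC13, in the same phases. LHC8 (Cz02g14140) and LHC13 (Cz08g00190) had an internal segment of 207 bases in common, flanked by phase 2 introns at 529 and 322 bases from the end in LHC8 and at 328 and 121 in LHC13, so the segment did not lie at the same distance from the end. Introns of the pair within 12 bases of each other lay at 529 and 322 bases in LHC8 and at 538 and 328 in LHC13. LHC13 was the sole member with all its introns in phase 2, and had 4 of them. LHC9 (Cz16g14150) and LHC11 shared a segment of 122 bases between phase 1 and phase 0 introns, although their distances to the end, 230 and 108 bases in LHC9 and 557 and 435 in LHC11, differed.

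Some positions were shared across the photosystem sets. LHC9 had the intron at 696 bases of LHC17 and LHC18 and the intron at 108 bases of LHC16, each exactly and in phase 0. LHC4 had the intron at 687 bases of LHC14, also in phase 0. LHC16 and LHC8 had 2 introns within 12 bases of each other, at 720 and 108 bases in LHC16 and at 717 and 114 in LHC8. LHC2 (Cz04g04130) and LHC14 shared a phase order of 0, 0 and 0, and LHC12 shared one of 0 and 0 with LHC19 and LHC20. Within the photosystem I set, LHC3 (Cz04g09210) and LHC7 (Cz15g17110) shared one of 2, 0 and 0.

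Counted from the end of the coding region, the minor antenna genes and LHCSR matched few other light-harvesting genes. LHCB4 (Cz03g26240, chromosome 3, bases 2698637 to 2700081, plus strand) opened with a first segment of 476 bases, the longest of the family, and had introns at 367 bases in phase 2 and at 101 in phase 1. LHCB5 (Cz08g11160, chromosome 8, bases 1183211 to 1185070, plus strand) had introns at 710, 625, 263 and 129 bases in phases 1, 2, 1 and 0. Neither had an intron within 12 bases of another light-harvesting gene in the same phase when counted from the end. Counted from the start, LHCB5 matched LHC1 exactly at 233 bases in phase 2 and LHC9 exactly at 729 bases in phase 0, and had introns within 12 bases of those of LHC3, LHC6, LHC11, LHC16, LHC17 and LHCSR. LHCB4 matched no gene exactly from the start, and had an intron within 12 bases of those of LHC8 and LHC13. LHCSR (Cz16g02040, chromosome 16, bases 225743 to 227028, plus strand) had phase 1 introns at 608 and 395 bases from the end, the first of them within 12 bases of the intron of LHC1 at 614. Counted from the start, LHCSR matched LHC17 exactly at 139 bases in phase 1, and had an intron within 12 bases of that of LHC18 at 133.

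Among early light-induced genes, ELIP2 and ELIP3 were the most alike. ELIP3 (Cz14g24190) had introns at 564, 299 and 156 bases from the end in phases 0, 1 and 0, and ELIP2 had introns in the same phases at 573, 290 and 159, with 3 further ones between the first 2 of these. ELIP1 and ELIP10 each had 1 intron, in phase 1, at 329 and 320 bases. ELIP7 (Cz17g00090) had a phase 0 intron at 456 bases, near those of ELIP8 at 453 and ELIP4 at 438, of which the one in ELIP4 lay beyond 12 bases. Its phase 2 intron at 166 bases lay within 12 bases of that of ELIP4 at 154. Counted from the start of the coding region, ELIP7 and ELIP4 had their first introns at 156 and 171 bases, ELIP3 at 159 and ELIP5 at 162, all in phase 0.

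**Figure D3:**
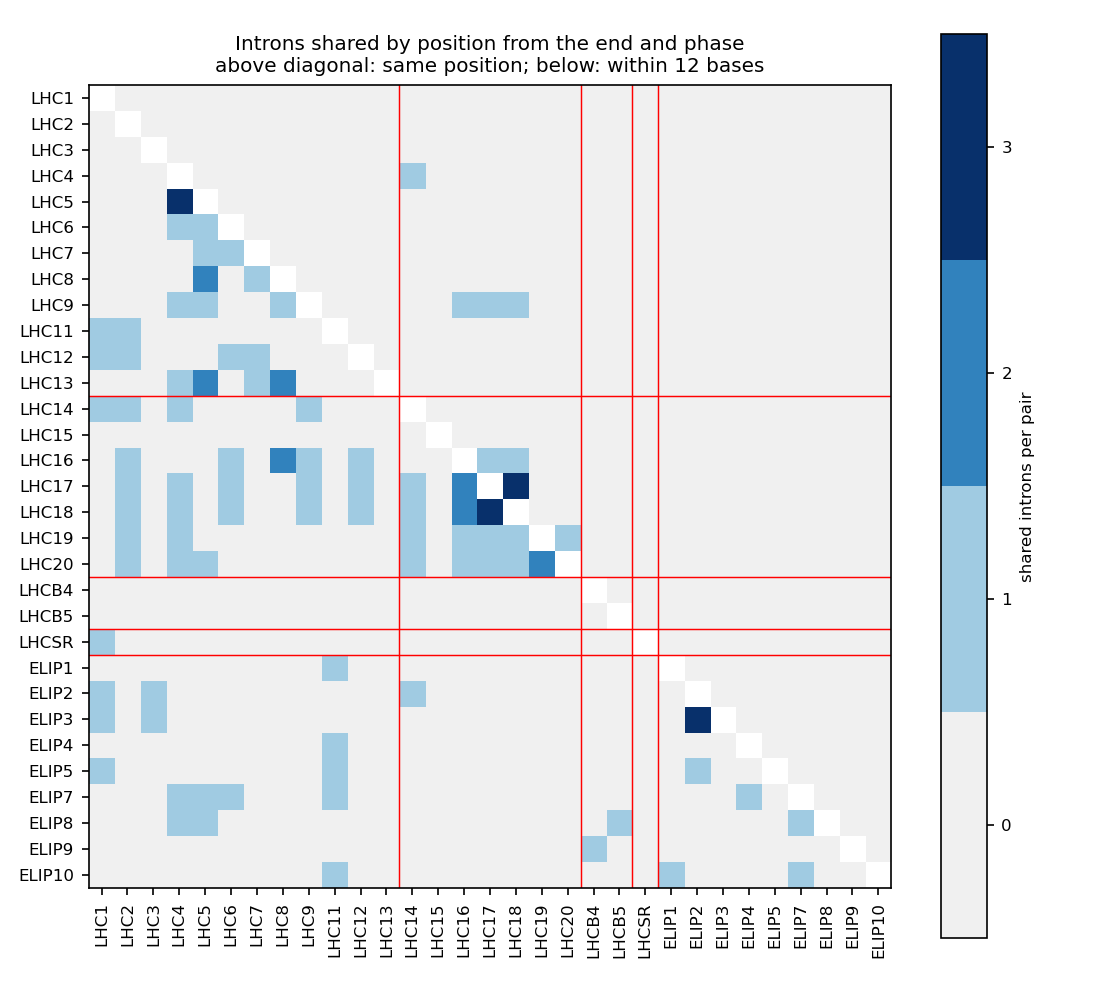
Number of shared introns for each pair of the 31 members with introns, counted by distance from the end of the coding region and phase, exactly above the diagonal and within 12 bases below it. Red lines separate the roles, and the 8 exact matches all lie within the light-harvesting family, 4 of them within the photosystem II set.

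Across the families no pair matched exactly when counted from the end, beside 1.07% of nuclear pairs. Within 3 bases there were 4 pairs of 198, or 2.02%, a tolerance at which the nuclear share was not computed. Within 12 bases the share across the families, 9.09%, was close to the 9.00% of nuclear pairs. LHC11 accounted for 3 of the 4 pairs within 3 bases. Its phase 1 intron at 317 bases lay near those of ELIP7 at 314 and ELIP10 at 320, and its phase 0 intron at 435 near that of ELIP4 at 438. The fourth paired LHCB4 at 101 bases with ELIP9 at 104, both in phase 1. Counted from the start of the coding region, 2 pairs across the families matched exactly, LHC6 and ELIP2 at 327 bases in phase 0 and LHCSR and ELIP1 at 352 bases in phase 1. Within the light-harvesting family the number of exact matches was 8 from either end, but no pair was in both counts. LHC17 and LHC18, which differ at the front, matched from the end of the coding region and not from its start. The photosystem II set had 4 matching pairs of 21 from the end and 2 of 21 from the start. A nuclear share counted from the start was not computed.

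An internal coding segment with the same length and flanking phases was found in 3 of 231 light-harvesting pairs, or 1.3%, and in 0 of 10 early light-induced pairs and 0 of 110 pairs across the families, against 2.88% of nuclear pairs. Among nuclear genes with no more than 6 introns, as in the members, the share was 0.957%. The same order of phases in genes with at least 2 introns was found in 6 of 231 light-harvesting pairs, 0 of 10 early light-induced pairs and 2 of 110 pairs across the families, against 0.688% of nuclear pairs. That nuclear share includes genes with more than 6 introns and was not computed without them, so it is not a like comparison. The 2 pairs across the families were ELIP3 with LHC17 and with LHC18. In all, the 31 members with introns had 23 distinct phase orders, 18 of them found in 1 member each.

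Median intron length was close in both families. It was 254 bases in light-harvesting genes with a range of 74 to 716, and 239 bases in early light-induced genes with a range of 72 to 525, beside 260 bases over all nuclear introns. The longest was the third intron of LHC9 at 716 bases. Short introns were frequent in the photosystem I set, where 9 of 50 were at most 100 bases, beside 1 of 22 in the photosystem II set, 2 of 21 in early light-induced genes and 4.46% of nuclear introns. The limit of 100 bases was chosen after the values were seen.

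Of these 9 short introns, 5 were the first of their gene, beside 1601 of the 2703 nuclear introns of at most 100 bases. In the photosystem I set the first intron had a median of 107 bases against 251 for later introns, and was shorter than the median of the later ones in 10 of 12 genes. LHC5 opened with introns of 77, 82 and 74 bases followed by 248, 304 and 320. LHC4, LHC7, LHC13 and LHC6 opened with introns of 78, 79, 82 and 85 bases, and LHC1 with 106 and 87. The second intron of LHC7 was also short, at 96 bases, and lay 333 bases into a coding region of 696. LHC8, with a first intron of 396 bases, and LHC12, with one of 369, went the other way. First introns of the photosystem II set had a median of 273 bases against 309 for later ones, and were the shorter in 3 of 7 genes. Early light-induced genes with at least 2 introns had 314 against 220 bases and the first was the shorter in 2 of 5, while 62% of such nuclear genes had a shorter first intron. LHC17 and LHC18, with equal internal and last segments, differed here, with first introns of 209 and 79 bases.

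**Figure D4:**
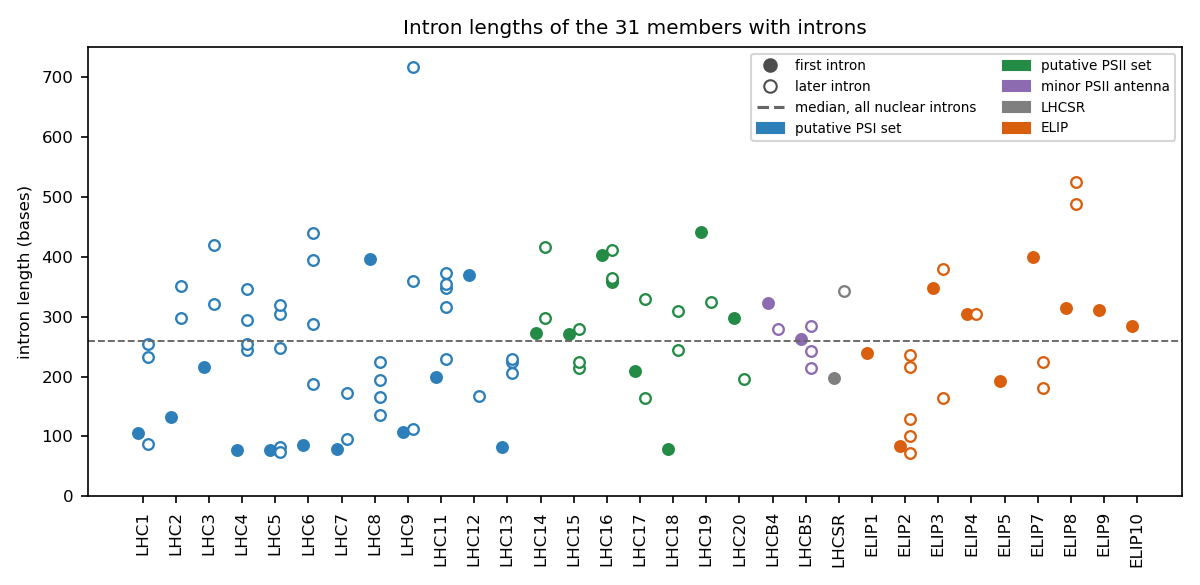
Length of each intron in bases for the 31 members with introns, filled points for the first intron of a gene and open points for later ones, coloured by role, with the median of all nuclear introns of 260 bases as a dashed line. Most first introns of the photosystem I set lie below the line, among them those of LHC4, LHC5, LHC6, LHC7 and LHC13 at 77 to 85 bases.

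The members were scattered over the genome. Of the 33, 32 lay on 15 of 19 chromosomes and LHC20 on an unplaced contig at bases 38456 to 39710, minus strand. Chromosomes 5, 6, 18 and 19 held none. Chromosomes 7 and 8 held 4 each, and 7 chromosomes held both families. Strands were 9 plus and 14 minus for light-harvesting genes and 8 plus and 2 minus for early light-induced genes. Within 100 kb of a chromosome end, a window chosen after the positions were seen, lay LHC4, LHC12, LHC13, ELIP7 and ELIP10, 5 of 32 against 6.52% of chromosomal genes.

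Clustering was limited to few pairs. LHC18 (chromosome 7, bases 230066 to 231463, plus strand) and LHC17 (bases 235350 to 236823, plus strand) were direct neighbours on the same strand, with 3886 bases between their coding regions. Of 7318 neighbouring nuclear pairs with at least 2 introns in each gene, 7 had the same number of introns with equal internal and last segments, or 0.0957%, and LHC17 and LHC18 were among them. This criterion was set after the structure of LHC17 and LHC18 was seen, so they could not fail it. The share is therefore no test of how unusual they are. LHC13 (chromosome 8, bases 59314 to 60856, minus strand) and ELIP10 (Cz08g00120, chromosome 8, bases 41392 to 42234, minus strand) lay 17079 bases apart with 6 genes between them, the closest pair across the families. They shared no intron position within 12 bases. ELIP1 (Cz07g29280, chromosome 7, bases 2991760 to 2992679, minus strand) and ELIP2 lay 53823 bases apart on opposite strands with 11 genes between them, just beyond the window of 50 kb. The next nearest pair, LHC2 and LHC3, was 511 kb apart.

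The genes next to the members were mostly unnamed. A named gene lay directly beside 5 of 33 members, against 6.44% of nuclear genes, and LHC17 and LHC18 were 2 of the 5. LHC13 lay 955 bases from NYC1 (Cz08g00200, chromosome 8, bases 61812 to 63076), a chlorophyllide b reductase that acts in the breakdown of chlorophyll b, and the 2 genes pointed away from each other. LHC6 (Cz12g16070, chromosome 12, bases 1630421 to 1632610, plus strand) stood in a row of genes on the same strand, 1048 bases after COQ8, noted as a serine threonine kinase, and 2696 bases before CHYB, a beta-carotene hydroxylase that makes xanthophylls. LHC10 lay 535 bases after TIC21A, a translocase of the inner chloroplast envelope, on the same strand.

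Named genes at greater distance included others of chloroplast function, of which those below were picked after the values were seen. How common such a function is among all named genes was not counted. ZEP1 (Cz07g30060, chromosome 7, bases 3027352 to 3031685), the zeaxanthin epoxidase of the xanthophyll cycle, lay between ELIP1 and ELIP2, 34672 bases from ELIP1 and 14817 from ELIP2. KAR3, a beta-ketoacyl reductase of fatty acid synthesis, lay between the same pair, 12864 bases from ELIP1. PSBX, a small photosystem II subunit, lay 24913 bases from ELIP8, PETM, a cytochrome b6f subunit, 15622 bases from LHC17, and KAS1, a beta-ketoacyl synthase, 4091 bases from LHC8. A named gene lay within 50 kb of 18 of 33 members, against 55.0% of nuclear genes, and none within 100 kb of 9 of 33, against 22.7%.

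Over each whole family, gaps to the neighbours were similar to those of other genes. The median gap, measured from coding region to coding region and so including untranslated sequence, was 1174.5 bases for light-harvesting genes, 1027.5 for early light-induced genes and 958 for all nuclear genes. The photosystem II set had a median upstream gap of 1903 bases with a range of 581 to 3886, and the photosystem I set one of 652 with a range of 443 to 4654. The median upstream gap of all nuclear genes, 932 bases, lay between them. LHC9 had 10264 bases to its downstream neighbour, the longest downstream gap of the 492 named chromosomal genes. ELIP5 had the narrowest upstream gap, 273 bases to a divergent gene. The upstream neighbour ran in the opposite direction in 12 of 23 light-harvesting and 5 of 10 early light-induced genes, beside 51.5% of nuclear genes.

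**Figure D5:**
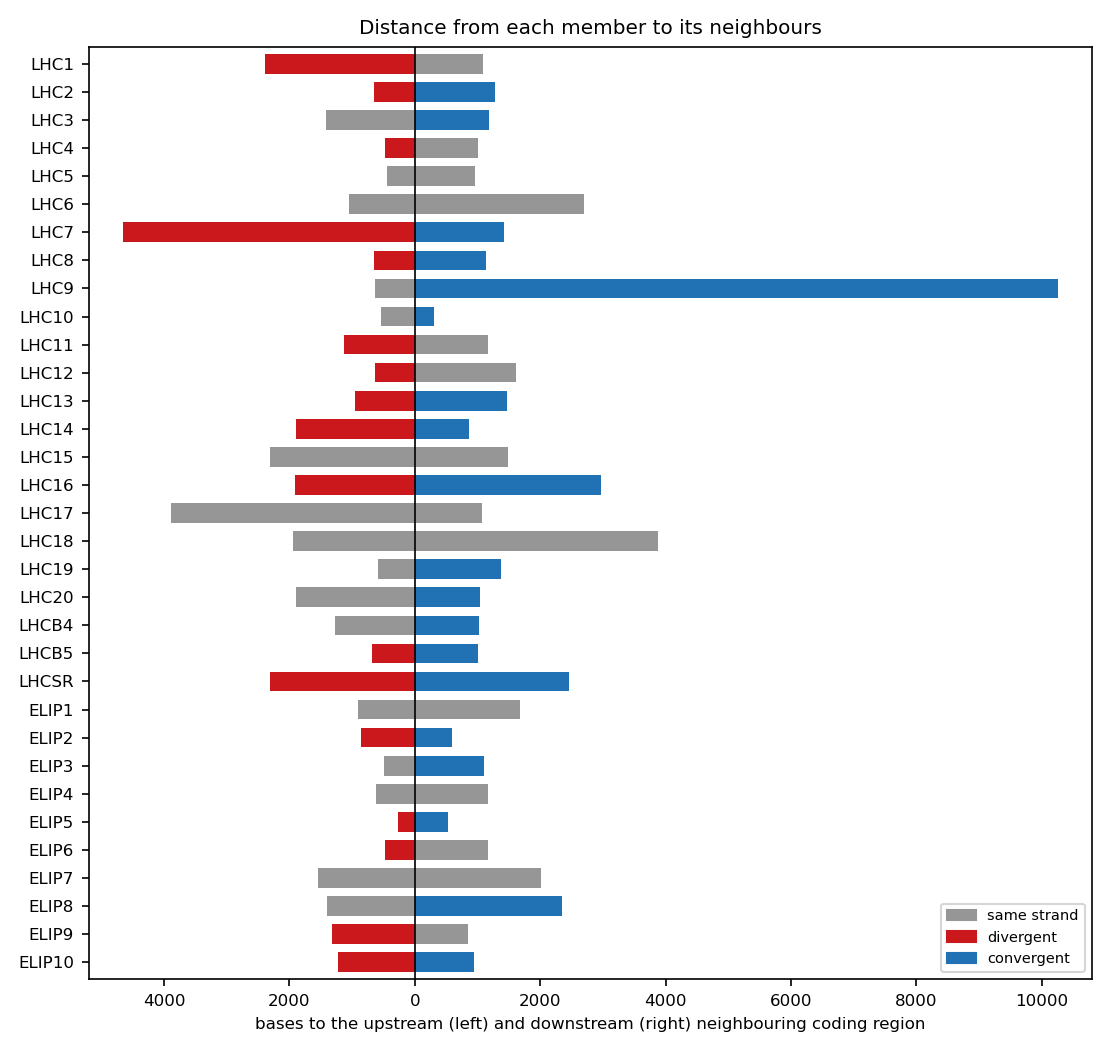
Bases from the coding region of each member to the coding region of its upstream neighbour (left of 0) and downstream neighbour (right of 0), coloured by orientation. Apart from the upstream gap of LHC7 at 4654 bases and the downstream gap of LHC9 at 10264, no gap exceeds the 3886 bases between LHC18 and LHC17.

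Other named genes of antenna assembly and chlorophyll turnover had longer coding regions than most members. The 20 such genes, chosen by name patterns, had a median coding length of 1308 bases and a mean of 4.95 introns, and 0 lacked introns. The 7 genes caught by the insertion and targeting pattern ran from ALB3B at 837 bases to CPSRP1 at 2019. The note of CPSRP1, an alpha subunit of a signal recognition particle receptor, does not mention the chloroplast. The 5 genes caught by the kinase and phosphatase pattern included STN7 at 2148 bases, a thylakoid kinase that in plants phosphorylates antenna proteins, and STN8, but the other 3, from 936 bases up, were noted as pheophytinases, enzymes of chlorophyll breakdown. The 6 genes of chlorophyll b and the end of chlorophyll synthesis ran from NOL at 972 bases, the other chlorophyllide b reductase, to CAO2 at 1905, a chlorophyllide a oxygenase. PSBS and HLIP1 encode proteins with the same kind of helix, and had 795 and 975 coding bases with 3 introns each. NYC1 was the sole gene among these 20 that lay directly beside a member.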

How the data were processed

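Structures were read from the deposited series-wide gene annotation, in GFF version 3, with positions counted from 1 on the assembly listed in its header. It held no value of any sample, and read depth was not analysed here. Gene models came from AUGUSTUS or were made manually, per the file's source column, and the authors deposited a score from 0.01 to 1 for predicted models, whose meaning is not given there. STAR 2.4.0j and Cuffdiff 2.2.1 appear in the submitters' processing notes with no role. Genome build and read alignment settings were not given in the sources used here.

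Coding length was the sum of coding segments, an intron the gap between neighbouring segments, and phase was read from the following segment. It equalled the phase computed from lengths in all 101 introns of the members. No untranslated regions were annotated. Pairs of genes were compared by coding bases from each intron to the end of the coding region, with phase, exactly and within 3, 6 and 12 bases. Proteins were not aligned. The scripts, in Python 3.11.15 with NumPy 2.4.6, SciPy 1.17.1 and Matplotlib 3.10.9, were tested on simulated data. No test was run, since members are related genes and no sample has a value here. The members and lists were chosen with earlier results of these data known. Every member could be named, and those at the extremes of coding length or intron number, on unplaced contigs, in pairs within 50 kb or with most shared introns were described in full. Of the other genes of the pathway, the longest and shortest of each list were named. PSBX, PETM, KAS1, KAR3, ZEP1, STN8, the windows and the criterion of equal internal and last segments were chosen after values were seen. Alternatives changed the score minimum (0.5, which drops manual models), the summary, the tolerance, the origin of positions, the window for nearby members and the background.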

Additional observations from a re-analysis of the deposited data

How the results depend on the processing

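Of 124 alternative values for 30 results, 101 stayed within the SD of single values, the binomial interval or 1.5 times of the count. Another 23 went beyond it, and 0 turned a direction, which only the 2 differences between families could do. Some of the 101 could not change. Names alone gave the same genes, and dropping the highest and lowest member leaves a median in place. Leaving out manual models, unplaced contigs or LHC17 removed no early light-induced gene. The coding length difference ran from 162 to 243.6 bases and the intron number difference from 1.38 to 1.65. The count of pairs with a shared intron position depended on the tolerance by construction. It was 24, 38 and 59 within the light-harvesting family at 3, 6 and 12 bases, 2, 3 and 6 within the early light-induced family, and 4, 10 and 18 across the families. Counted from the start of the coding region, 2 pairs across the families matched. The light-harvesting count from the start was again 8, but of other pairs than those matched from the end. Without LHC9, LHC16, LHC17 or LHC18, alternatives chosen after the data were seen, the light-harvesting count was 5 in place of 8. Light-harvesting pairs with a shared internal segment numbered 7 with lengths within 3 bases, 5 without regard to phase and 1 with models scored at least 0.5, and pairs across the families 4 within 3 bases. Directly neighbouring members numbered 2 in place of the 4 within 50 kb. With named chromosomal genes as background, 6.3% lacked introns and 1.76% of pairs shared an intron position. With nuclear genes of up to 6 introns, chosen after the data were seen, 0.957% of pairs shared an internal segment. The cause of these shifts was not tested beyond what the settings fix. Wrong exon borders in predicted models, 3 of which scored below 0.5, would move positions and phases, and positions counted from an end shift with any insertion behind the intron, so unshared positions here do not show that introns lie at different places in aligned proteins.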
